A study of Mus musculus with 6 samples.

Results

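The genes described here encode the protein folding machinery of the cytosol and mitochondria, in cultured mouse neural stem cells after silencing of a circular RNA. A list of 42 genes was matched by symbol to the 54884 entries of the deposited expression table, and all 42 were found, each with 1 entry. They comprise 2 heat shock transcription factors, 6 Hsp70 and Hsp110 genes, 5 Hsp40 genes, 3 BAG genes, 2 Hsp90 genes, 6 Hsp90 cochaperones, 8 subunits of the chaperonin TRiC, 3 prefoldin subunits, 3 small heat shock proteins and 4 mitochondrial chaperones. Of these, 41 had a mean of at least 1 FPKM over the libraries and were tested. Hspb1 had not.

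One set of cells was transduced with a lentivirus carrying siRNA against circHIPK2, a circular RNA made from the Hipk2 gene, and the control cells with a lentivirus carrying a control siRNA called circCon. Each group had 3 libraries, and there was no untransduced group among the samples analysed here. Both groups were C57BL/6 neural stem cells from the hippocampus of embryos at day 14, used between passages 3 and 8, so both carried a lentivirus and both had been expanded in culture. Poly(A) RNA was sequenced from both ends, and levels are in FPKM, fragments scaled to transcript length and to the library's total, which allows genes of different length to be compared.

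Chaperones bind unfolded protein and help it reach its native shape. Hsp70 proteins clamp and release short stretches of chain, with Hsp40 proteins delivering the clients and BAG and Hsp110 proteins exchanging the nucleotide. Hsp90 finishes receptors and kinases with a set of cochaperones. TRiC, a ring of 8 different subunits supplied by prefoldin, folds actin and tubulin, and Hsp60 with Hsp10 does similar work inside mitochondria. Many of these genes are switched on by the factor Hsf1 when proteins misfold, through repeats of GAA and its inverse TTC in their promoters.

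Depth, read from the steps of the low FPKM values, lay between 18400000 and 20990000 fragments in the siRNA libraries and between 19880000 and 21890000 in the controls. Neural stem cell markers were present in every library, summing over 8 genes to 1418 to 1743 FPKM with the siRNA and 1738 to 2161 FPKM in the controls. Their values differed in sign: Hes5 and Fabp7 lay entirely lower, by log2 fold changes of −0.71 and −0.66 (limma's p after Benjamini-Hochberg adjustment, the BH-adjusted p, was 0.0666 and 0.211), while Vim had 0.33 and the other 5 lay between −0.11 and 0.10 with overlap. Neuron markers (4 genes) summed to 10.1 to 11.6 FPKM with the siRNA and 12.9 to 14.2 FPKM in controls, and oligodendrocyte markers (4 genes) to 39.5 to 71.8 FPKM with the siRNA and 50.3 to 76.5 FPKM in controls. Endothelial and microglial markers (4 genes each) summed to at most 0.903 FPKM with the siRNA and 0.701 FPKM in the controls, and the microglial gene Cx3cr1 was at 0 in all 6 libraries. Liver markers (7 genes) summed to between 1.95 and 2.21 FPKM with the siRNA and between 33.4 and 55.4 FPKM in the controls, Fabp1 and Serpina1c being at 0 in every siRNA library. A list of 9 entries, chosen by name, was taken to collect ribosomal RNA reads. Called ribosomal RNA locus entries here for short, they include Gm42418, AY036118 and Lars2, though Lars2 is a protein-coding gene. They took 11.5%, 3.24% and 19.9% of all FPKM in siRNA libraries 1 to 3, against 0.58%, 0.426% and 0.321% in control libraries 1 to 3. Apart from the rescaling without those 9 entries, the part of these marker and ribosomal RNA differences in the chaperone values was not tested. Hipk2 itself, which measures the linear mRNA and not the circle, averaged 27.0 ± 2.78 FPKM with the siRNA and 33.2 ± 3.23 FPKM in controls (SD, n = 3 each; limma's BH-adjusted p = 0.257).

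In bulk RNA fewer cells of a type and less RNA per cell cannot be told apart. The comparison asks whether the folding machinery differs in neural stem cells when circHIPK2 is silenced. None of the 41 tested genes passed an adjusted p below 0.05 in limma, a moderated linear model across the 13702 entries tested, where 35 entries (0.255%) passed. The 7 liver markers were among those 35, all lower with the siRNA. Their BH-adjusted p in limma ran from 4.68e-06 for Alb to 0.0135 for Apoa1 and Apoa2. The smallest BH-adjusted p among the chaperone genes was 0.167, for Bag3 in limma. Before adjustment 11 genes had p below 0.05, with 10 lower and 1 higher, against 15.5% of all entries lower and 1.83% higher. The median log2 fold change of the 41 genes was −0.20 on the log2(FPKM + 1) scale, against −0.12 over all entries, and 26 of the 41 lay below that overall median. In 13 genes every siRNA library was below every control library, which was so for 22.1% of all entries, and in 2 genes, Bag3 and Hspb8, every siRNA library was above (2.65% of all entries). The 13 are 31.7% of the 41. Without siRNA library 2 the count was 24, or 60% of the 40 genes then tested (42.4% of all entries). Without control library 2 it was 21, or 52.5% of 40 (36.4% of all entries). Without any other single library it lay between 13 and 17 (24.1% to 27.5% of all entries).

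**Figure D1:**
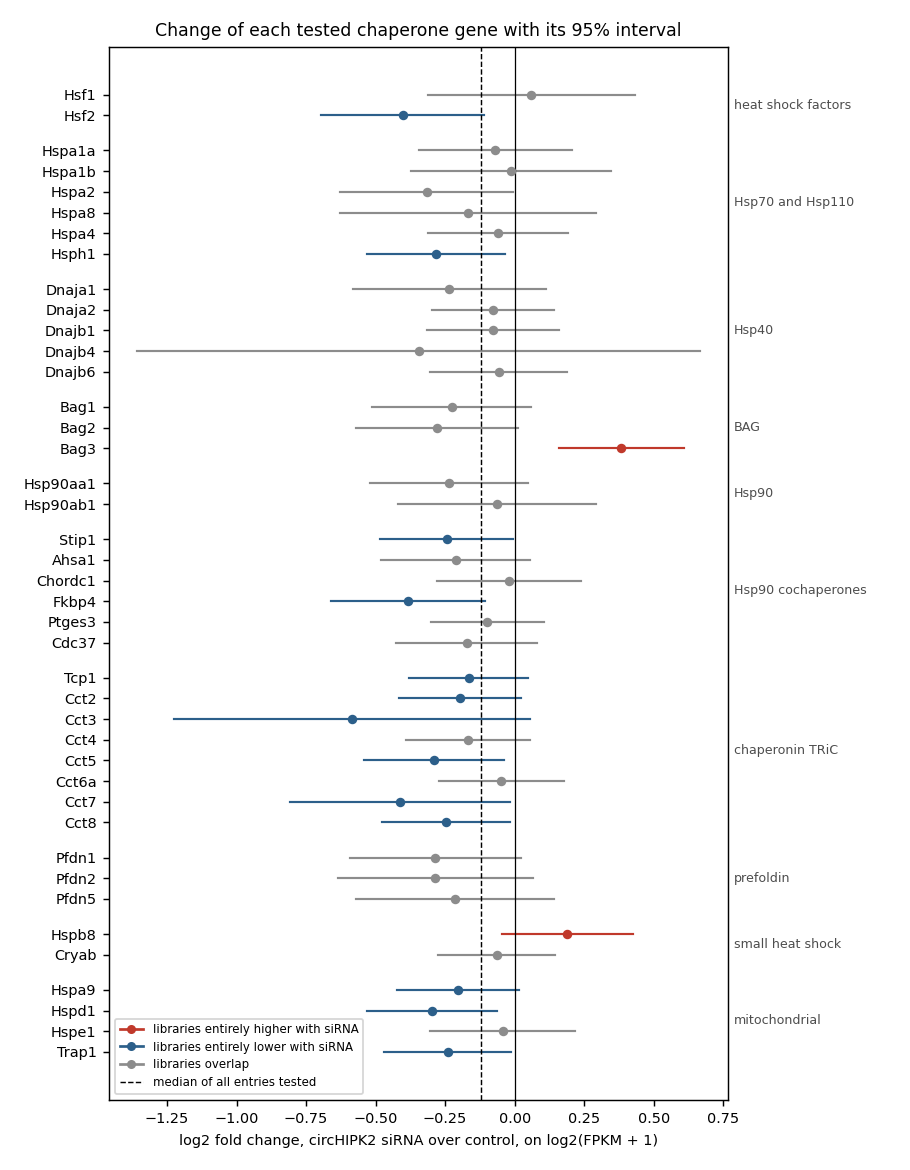
Log2 fold change, circHIPK2 siRNA over control on log2(FPKM + 1), of the 41 tested chaperone genes, with limma's 95% interval. Blue marks the 13 genes whose siRNA libraries all lay below the controls, red the 2 whose siRNA libraries all lay above, and grey the 26 that overlapped. The dashed line is the median of all entries, −0.12, and most points lie to its left.

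The overall level of the machinery was high. The 42 genes summed to 2877, 3331 and 2817 FPKM in siRNA libraries 1 to 3 and to 3692, 3224 and 3299 FPKM in control libraries 1 to 3, between 0.619% and 0.784% of all FPKM. These sums overlapped between the groups, siRNA library 2 lying above control library 2. A pair of constitutive genes, Hspa8 and Hsp90ab1, made up between 38.3% and 41.0% of the sum in siRNA libraries and between 35.6% and 40.2% in controls. Within a group the libraries did not rank alike. Among the 41 tested genes siRNA library 2 was the highest of its group for 33 and siRNA library 3 the lowest for 23. In the controls library 1 was highest for 23 and library 2 lowest for 29. These ranks were not counted over all entries, so they are not shown to be particular to the chaperone genes. Of the siRNA libraries, number 2 had the smallest share in the ribosomal RNA entries and number 3 the largest.

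**Figure D2:**
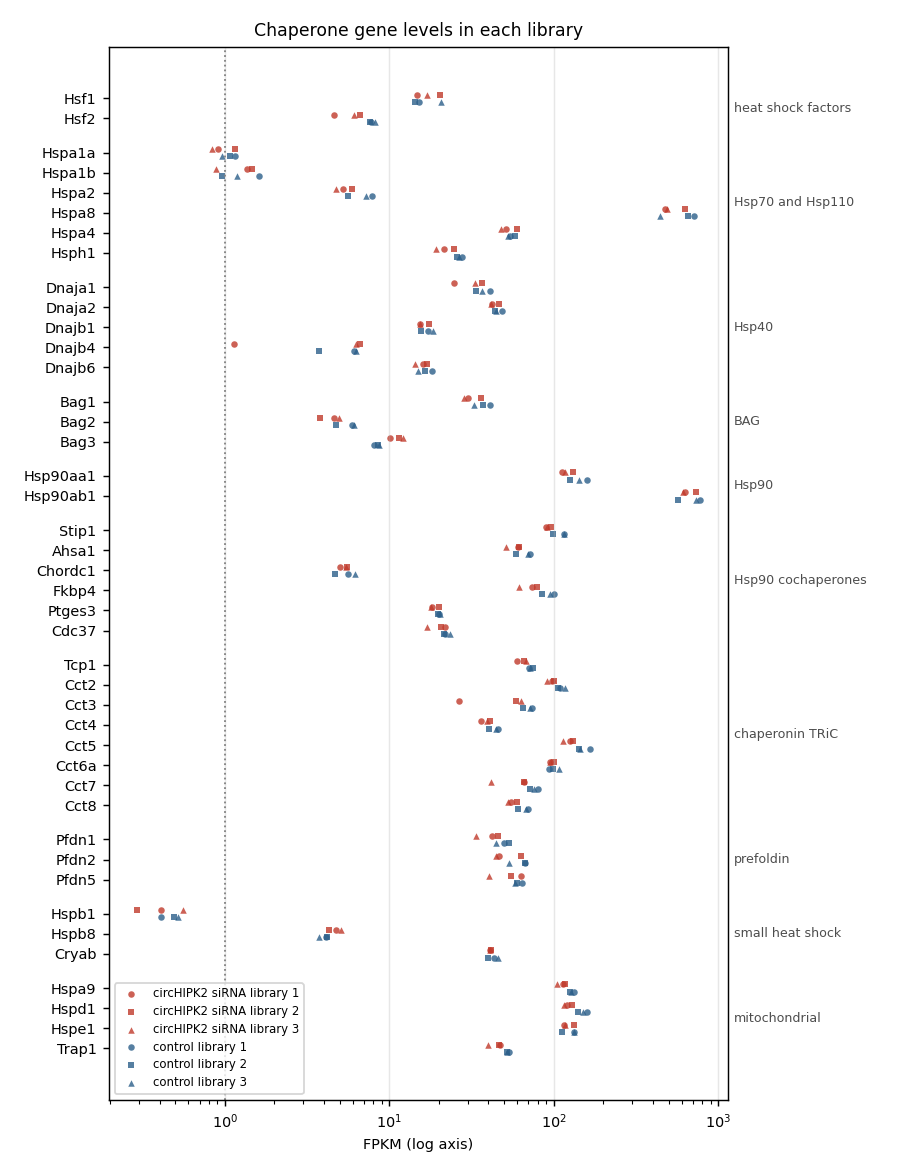
FPKM on a log axis of the 42 chaperone genes, by family, in the 3 circHIPK2 siRNA libraries (red) and the 3 control libraries (blue). The dotted line marks 1 FPKM, the minimum mean for testing. Levels run from under 1 FPKM for Hspb1 to 773 FPKM for Hsp90ab1 in control library 1, and the spread between genes far exceeds the distance between the groups.

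The heat shock factors stand at the head of this machinery. Hsf1, the main regulator of the heat shock response, had 14.6, 20.4 and 17.0 FPKM in siRNA libraries 1 to 3 and 15.0, 14.3 and 20.7 FPKM in control libraries 1 to 3. The groups overlapped, with a log2 fold change of 0.06 (SE 0.16; limma's BH-adjusted p = 0.864). Hsf2, a related factor active in development, had 4.57, 6.59 and 6.11 FPKM with the siRNA and 7.72, 7.66 and 8.19 FPKM in controls. All 3 siRNA values lay below the controls, and its log2 fold change of −0.40 (SE 0.13) did not reach the threshold (limma's BH-adjusted p = 0.205). Without siRNA library 1, the lowest, it was −0.27.

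Among the Hsp70 genes the constitutive form dominated. Hspa8, the housekeeping Hsc70, had 473, 632 and 485 FPKM in siRNA libraries and 709.7, 653 and 444 FPKM in controls. The controls alone spanned both ends of the range, so its log2 fold change of −0.17 had a 95% interval from −0.63 to 0.29. The stress-inducible genes Hspa1a and Hspa1b stayed near 1 FPKM. Hspa1a had 0.911, 1.15 and 0.836 FPKM with the siRNA and 1.15, 1.07 and 0.955 FPKM in controls, and Hspa1b averaged 1.23 ± 0.306 FPKM with the siRNA and 1.25 ± 0.334 FPKM in controls (SD, n = 3 each). Per unit of length Hspa1a was thus 0.00182 ± 0.0001 of Hspa8 with the siRNA and 0.0018 ± 0.000299 in controls (SD, n = 3 each). Hspa1a and Hspa1b overlapped between groups. These near-identical copies shared 58.8% of the 50-base windows of Hspa1a, so reads may be split between them, and their promoters were identical at 296 of 300 positions.

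Among the remaining Hsp70 relatives 1 of 3 was separated, lying entirely lower, as did 22.1% of all entries. Hsph1, an Hsp110 protein that exchanges nucleotide on Hsp70, had 21.5, 24.5 and 19.2 FPKM with the siRNA and 27.7, 25.6 and 26.3 FPKM in controls. Every siRNA value was below every control value, with a log2 fold change of −0.28 (SE 0.11; limma's BH-adjusted p = 0.249). Hspa4, the other Hsp110 gene, had 52.9 ± 6.13 FPKM with the siRNA and 55.0 ± 3.15 FPKM in controls (SD, n = 3 each), and overlapped. Hspa2, an Hsp70 best known from the testis, averaged 5.30 ± 0.582 FPKM with the siRNA and 6.89 ± 1.19 FPKM in controls, also overlapping (log2 fold change −0.32, limma's BH-adjusted p = 0.281).

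The Hsp40 genes, whose proteins pass clients to Hsp70, did not separate the groups: all 5 overlapped, with log2 fold changes from −0.35 to −0.06. Dnaja2, the most abundant, had 41.8, 46.2 and 41.5 FPKM with the siRNA and 48.6, 43.8 and 44.5 FPKM in controls. Dnajb1, the stress-inducible Hsp40, averaged 16.1 ± 1.15 FPKM with the siRNA and 17.0 ± 1.53 FPKM in controls (SD, n = 3 each). Dnaja1, a partner of cytosolic Hsp70, and Dnajb6, which holds back aggregation, also overlapped, with siRNA means of 31.6 and 15.8 FPKM and control means of 37.0 and 16.5 FPKM. Dnajb4, a relative of Dnajb1, varied most among the siRNA libraries, at 1.14, 6.64 and 6.23 FPKM in siRNA libraries 1 to 3 and 6.05, 3.73 and 6.26 FPKM in controls. Its log2 fold change of −0.35 rested on siRNA library 1 and was 0.25 without it.

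The BAG genes, which encode nucleotide exchange factors that compete for Hsp70, parted from each other. Bag3, which links Hsp70 to autophagy and is itself stress-inducible, had 10.1, 11.5 and 12.0 FPKM with the siRNA and 8.00, 8.48 and 8.59 FPKM in controls. All siRNA libraries stood above all controls, by a log2 fold change of 0.38 (SE 0.10, 95% interval 0.16 to 0.61; limma's BH-adjusted p = 0.167). Bag1, the founding member of the family, had 30.1, 36.0 and 28.2 FPKM with the siRNA and 40.9, 37.1 and 32.7 FPKM in controls, a log2 fold change of −0.23 with overlapping groups. Bag2, an inhibitor of the ubiquitin ligase CHIP, averaged 4.44 ± 0.583 FPKM with the siRNA and 5.61 ± 0.75 FPKM in controls (SD, n = 3 each; log2 fold change −0.28). The ratio of Bag3 to Bag1, which no scaling of libraries can change, was 0.337, 0.32 and 0.426 in siRNA libraries and 0.196, 0.229 and 0.263 in controls, without overlap. Its two-sided exact permutation p was 0.1, the smallest that 3 against 3 libraries can give, and 0.167 after adjustment over the 10 ratios computed. The pair was chosen after the values were seen, with Bag3 having the largest positive change of the list, so its separation adds no support.

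The small heat shock proteins hold unfolded chains without ATP, and Hspb8 is a member that binds Bag3. Hspb8 had 4.73, 4.26 and 5.09 FPKM with the siRNA and 4.09, 4.15 and 3.71 FPKM in controls. It was the other gene whose siRNA libraries all stood higher, by a log2 fold change of 0.19 (SE 0.10) that did not reach the threshold (limma's BH-adjusted p = 0.362). Cryab, alpha-B crystallin of lens and glia, had 41.2 ± 0.489 FPKM with the siRNA and 43.1 ± 2.92 FPKM in controls (SD, n = 3 each), and overlapped. Hspb1, the inducible small heat shock protein, was below the filter, at 0.409, 0.293 and 0.556 FPKM with the siRNA and 0.405, 0.492 and 0.515 FPKM in controls. The order within the family was thus Cryab, Hspb8, Hspb1 in every library.

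Hsp90 was represented by a constitutive and an inducible form. Hsp90ab1, the constitutive form and the most abundant gene of the list by mean, had 629, 734 and 611 FPKM with the siRNA and 773, 568 and 731 FPKM in controls, and the groups overlapped (log2 fold change −0.06, 95% interval −0.42 to 0.29). Hsp90aa1, the inducible form, had 112, 131 and 117 FPKM with the siRNA and 159.9, 125 and 141 FPKM in controls, overlapping through control library 2 and sharing 47.5% of its 50-base windows with other genes (log2 fold change −0.24, limma's BH-adjusted p = 0.35). The ratio of Hsp90aa1 to Hsp90ab1 was 0.177, 0.179 and 0.192 with the siRNA and 0.207, 0.22 and 0.193 in controls. The ratios did not overlap, though siRNA library 3 and control library 3 were nearly equal (two-sided exact permutation p of 0.1, and 0.167 after adjustment over the 10 ratios computed). This pair too was chosen after the values were seen.

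Among the Hsp90 cochaperones the 6 genes had log2 fold changes from −0.38 to −0.02, and 2 lay entirely lower, as did 22.1% of all entries. With median-of-ratios scaling Fkbp4 alone of the 6 did (10.1% of all entries), and with the ribosomal RNA entries removed 0 did (4.28% of all entries). Fkbp4, the immunophilin FKBP52 of steroid receptor complexes, had 73.2, 78.5 and 61.7 FPKM with the siRNA and 99.6, 84.3 and 94.7 FPKM in controls. Its libraries were separated, with a log2 fold change of −0.38 (SE 0.12; limma's BH-adjusted p = 0.203). Stip1, the adaptor Hop that bridges Hsp70 and Hsp90, had 89.4, 96.5 and 90.6 FPKM with the siRNA and 115, 98.3 and 115 FPKM in controls, separated only narrowly at library 2 (log2 fold change −0.24). Ahsa1, the ATPase activator Aha1, Cdc37, the kinase adaptor, and Ptges3, the p23 cochaperone, overlapped, with siRNA means of 57.6, 19.7 and 18.7 FPKM and control means of 66.9, 22.3 and 20.04 FPKM. Chordc1, a cochaperone with CHORD domains, overlapped, at 5.35 ± 0.267 FPKM with the siRNA and 5.46 ± 0.742 FPKM in controls (SD, n = 3 each).

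Of the 8 subunits of the chaperonin TRiC, 6 lay entirely lower with the siRNA, as did 22.1% of all entries, and 2, Cct4 and Cct6a, overlapped. With median-of-ratios scaling 3 of the 8 lay entirely lower (10.1% of all entries), and with the ribosomal RNA entries removed 0 did (4.28% of all entries). The 8 log2 fold changes ran from −0.59 to −0.05 with a median of −0.22, against −0.12 over all entries, and 0 passed the test (limma's BH-adjusted p from 0.244 to 0.813). Their sum was 560, 621 and 564 FPKM in siRNA libraries and 708, 659 and 699.9 FPKM in controls, without overlap as deposited. The sum was not computed under the other scalings. Cct5, the most abundant, had 125, 130.5 and 114 FPKM with the siRNA and 165, 141 and 145 FPKM in controls. Cct5 was separated, and so was Cct8, another subunit of the ring. Cct8 had 54.7, 59.6 and 52.7 FPKM with the siRNA and 70.0, 61.0 and 67.8 FPKM in controls. Tcp1 and Cct2 were also separated, by log2 fold changes of −0.17 and −0.20.

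For a pair of subunits a single library set the size of the value. Cct3 had 26.7, 58.5 and 62.9 FPKM in siRNA libraries 1 to 3 and 73.2, 65.1 and 71.6 FPKM in controls, so its log2 fold change of −0.59 (SE 0.28) was −0.20 without siRNA library 1. Cct7 had 65.6, 65.6 and 41.6 FPKM with the siRNA and 79.9, 71.2 and 75.2 FPKM in controls, and its −0.41 (SE 0.17) was −0.20 without siRNA library 3. Cct6a had 94.9, 101 and 95.2 FPKM with the siRNA and 93.8, 99.5 and 108 FPKM in controls, a log2 fold change of −0.05 (95% interval −0.27 to 0.18). As a share of the mean subunit of its library, Cct6a was 136%, 129.8% and 135% with the siRNA and 106%, 121% and 123% in controls, the only subunit of the 8 whose shares did not overlap. That mean includes the low Cct3 of siRNA library 1 and the low Cct7 of siRNA library 3, which raises the other shares there. The shares were not tested, and Cct6a was singled out after they were seen. Although the ring holds 1 copy of each kind of subunit per layer, their mRNAs differed in level: the highest, Cct5, exceeded the lowest by 2.90 to 4.67-fold in siRNA libraries and by 3.25 to 3.60-fold in controls. The lowest was Cct4 except in siRNA library 1, where it was Cct3.

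Prefoldin, which hands actin and tubulin chains to TRiC, lay lower without separation. Pfdn1 had 41.9, 45.7 and 33.5 FPKM with the siRNA and 49.8, 53.4 and 44.2 FPKM in controls (log2 fold change −0.29). Pfdn2 and Pfdn5 averaged 51.3 and 52.8 FPKM with the siRNA and 62.4 and 60.5 FPKM in controls. All 3 log2 fold changes lay between −0.29 and −0.21, and siRNA library 3 was the lowest of the 6 for each. Without that library Pfdn1 had −0.16 and Pfdn5 −0.04, while Pfdn2 had −0.44 without siRNA library 2.

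**Figure D3:**
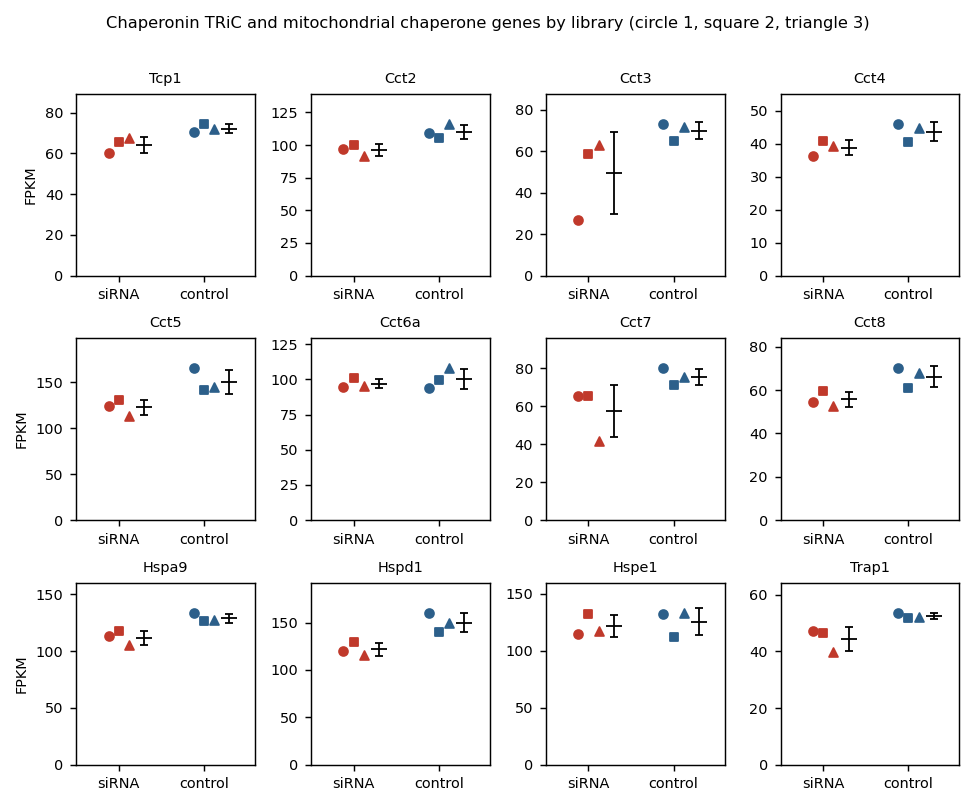
FPKM of the 8 TRiC subunits and the 4 mitochondrial chaperones in the 3 circHIPK2 siRNA libraries (red, left in each panel) and the 3 control libraries (blue, right), with mean and SD (n = 3) in black; every axis starts at 0. Cct3 is low in siRNA library 1 and Cct7 in siRNA library 3, while Cct6a and Hspe1 overlap between the groups.

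Of the 4 mitochondrial chaperones 3 lay entirely lower, as did 22.1% of all entries. With median-of-ratios scaling Hspd1 alone of the 4 did (10.1% of all entries), and with the ribosomal RNA entries removed 0 did (4.28% of all entries). Hspd1, the mitochondrial Hsp60, had 120.1, 129 and 116 FPKM with the siRNA and 160.0, 140.3 and 149 FPKM in controls. Its log2 fold change of −0.30 (SE 0.10) did not reach the threshold (limma's BH-adjusted p = 0.222). Hspa9, the mitochondrial Hsp70, had 113, 117 and 105 FPKM with the siRNA and 133, 126 and 127 FPKM in controls. Trap1, the mitochondrial Hsp90, averaged 44.4 ± 4.13 FPKM with the siRNA and 52.4 ± 0.945 FPKM in controls (SD, n = 3 each), and both were separated, by log2 fold changes of −0.20 and −0.24. Hspe1, the Hsp10 lid of the Hsp60 chamber, overlapped, at 115, 133 and 118 FPKM with the siRNA and 132, 112 and 133 FPKM in controls (log2 fold change −0.04, 95% interval −0.30 to 0.22).

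Hspd1 and Hspe1 are divergent neighbours, and their promoter windows overlap. Hspd1 has an annotated start whose 300-base window overlaps that of Hspe1 by 285 bases on the opposite strand. The ratio of Hspd1 to Hspe1 was 1.05, 0.974 and 0.986 in siRNA libraries and 1.21, 1.26 and 1.12 in controls, without overlap (two-sided exact permutation p of 0.1, which 3 against 3 libraries cannot go below, and 0.167 after adjustment over the 10 ratios computed). The 10 ratios were chosen after the values were seen. Both genes share sequence with pseudogenes, Hspd1 over 39.7% of its windows and Hspe1 over 18.4%, so part of their reads may be counted elsewhere. In annotated exons the pair overlap by 112 bases on opposite strands, and the sources used here do not give whether counting used strand.

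**Figure D4:**
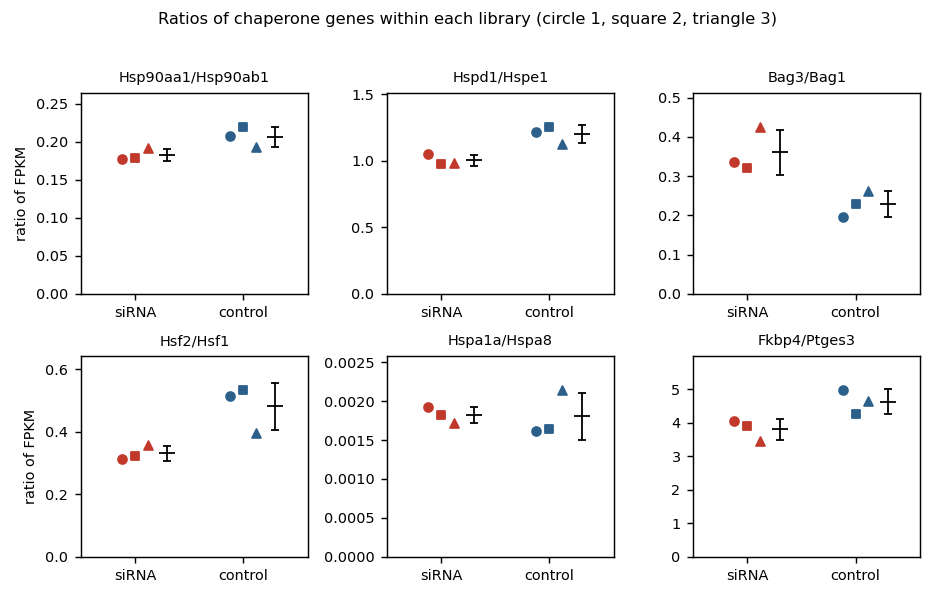
Ratio of the FPKM of named pairs of chaperone genes within each library, for the 3 circHIPK2 siRNA libraries (red, left) and the 3 control libraries (blue, right), with mean and SD (n = 3) in black; every axis starts at 0. Bag3/Bag1 was higher with the siRNA, while Hsp90aa1/Hsp90ab1, Hspd1/Hspe1, Hsf2/Hsf1 and Fkbp4/Ptges3 were lower without overlap and Hspa1a/Hspa8 overlapped. Of the 10 ratios computed, Hspa1b/Hspa8, Hsph1/Hspa8 and Cct3/Cct6a, which overlapped, and Cct5/Cct6a, which was lower without overlap, are not drawn. All pairs were chosen after the values were seen.

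The promoters were searched for the letters of the heat shock element. RefSeq promoter windows of 300 bases, from 250 before to 50 after a start in build GRCm38.p6, were matched by symbol for 34 of the 42 genes. Hsf1, Hspa8, Hspa9, Hsp90aa1, Hsp90ab1, Cct4, Pfdn1 and Cryab had no window and were not searched. The longer element searched was GAANNTTC followed by NNGAA, on both strands. It was found in 5 of the 34 genes (14.7%), namely Chordc1, Dnajb6, Hspd1, Hspe1 and Hsph1, against 0.662% of 27025 genes with a window. Hspd1 carries it only in the window that overlaps that of Hspe1 by 285 bases, so this pair was counted through the same stretch. The window of the other annotated Hspd1 start held 0 matches. The shorter GAANNTTC (reverse complement TTCNNGAA), part of the longer element, was found in 17 of 34 (50%), Bag3 and Hspb8 among them, against 17.0% of genes. Shown are the window that Hspe1 shares with Hspd1 (chr1:55087898-55088197, plus strand), those of Hsph1 (chr5:149636287-149636586, minus strand) and Chordc1 (chr9:18292017-18292316, plus strand) as carriers with different values, and that of Bag3 (chr7:128523333-128523632, plus strand), the gene with the largest positive change. Capitals mark the longer element in the first 3, where overlapping matches run together, and the shorter one in Bag3.
Hspe1: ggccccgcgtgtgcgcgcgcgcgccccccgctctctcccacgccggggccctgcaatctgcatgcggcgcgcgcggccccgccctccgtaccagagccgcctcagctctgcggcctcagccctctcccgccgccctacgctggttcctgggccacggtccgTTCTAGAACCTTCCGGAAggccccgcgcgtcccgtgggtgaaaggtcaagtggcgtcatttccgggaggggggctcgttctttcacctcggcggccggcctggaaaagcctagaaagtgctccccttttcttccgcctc
Hsph1: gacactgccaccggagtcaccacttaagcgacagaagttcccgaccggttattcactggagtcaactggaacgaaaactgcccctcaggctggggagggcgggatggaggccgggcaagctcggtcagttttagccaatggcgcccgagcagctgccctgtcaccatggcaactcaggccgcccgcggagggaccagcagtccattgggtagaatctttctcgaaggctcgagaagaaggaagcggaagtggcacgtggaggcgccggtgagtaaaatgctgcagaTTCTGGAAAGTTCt
Chordc1: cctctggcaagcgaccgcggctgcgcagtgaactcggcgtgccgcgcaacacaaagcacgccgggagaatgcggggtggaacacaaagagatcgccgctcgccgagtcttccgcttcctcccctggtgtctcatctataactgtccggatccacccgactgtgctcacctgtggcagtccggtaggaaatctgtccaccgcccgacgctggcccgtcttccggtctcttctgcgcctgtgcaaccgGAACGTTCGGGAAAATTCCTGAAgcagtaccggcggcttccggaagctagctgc
Bag3: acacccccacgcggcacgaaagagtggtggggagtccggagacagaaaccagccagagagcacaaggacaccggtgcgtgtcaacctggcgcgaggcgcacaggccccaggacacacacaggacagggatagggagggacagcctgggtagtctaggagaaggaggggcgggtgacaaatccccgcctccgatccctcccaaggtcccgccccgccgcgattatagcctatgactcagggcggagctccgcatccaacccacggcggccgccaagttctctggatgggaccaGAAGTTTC

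The 5 carriers of the full element had unequal values, and none passed the test. Hspd1 and Hsph1 had log2 fold changes of −0.30 and −0.28 with separated libraries, while Hspe1, Chordc1 and Dnajb6 had −0.04, −0.02 and −0.06 with overlapping libraries. In the Hspe1 window the element ends 72 bases before the start, whereas in Chordc1 it spans the start and in Hsph1 it lies after it. The strongly stress-inducible Hspa1a, Hspa1b, Dnajb1 and Hspb1 had log2 fold changes of −0.07, −0.01 and −0.08 for the first 3, the last being below the filter. Hspa1a, Hspa1b and Hspb1 matched only the shorter form, and Dnajb1 matched neither. A match of letters does not show binding, and a window without a match is not shown to lack an element.

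Other scalings of the libraries raised all genes together, so values just below 0 turned positive, and the 3 genes above 0 as deposited, Hsf1, Bag3 and Hspb8, could only stay there. With median-of-ratios scaling, which sets the median of all entries to about 0, the chaperone median was −0.07, and 7 genes (17.1%) lay entirely lower, against 10.1% of all entries, while 2 lay entirely higher, against 10.1%. Those lower were Hsf2, Hsph1, Fkbp4, Cct5, Cct7, Cct8 and Hspd1. With the 9 ribosomal RNA locus entries removed and columns rescaled, the chaperone median was 0.0016 and that of all entries 0.058. Then 0 of the 41 genes lay entirely lower (4.28% of all entries) and 3 entirely higher, Bag3, Hspb8 and Hspa4 (14% of all entries). The chaperone median minus that of all entries was −0.083 as deposited, −0.065 with median-of-ratios and −0.056 after the removal. Bag3 had log2 fold changes of 0.38, 0.51 and 0.57 and Hspb8 of 0.19, 0.30 and 0.36 under the 3, with all siRNA libraries above all controls in each, while 0 of the 41 genes passed under any of them (0.27% of all entries called with median-of-ratios and 0.219% after the removal; for Bag3 limma's BH-adjusted p = 0.167, 0.13 and 0.166).

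**Figure D5:**
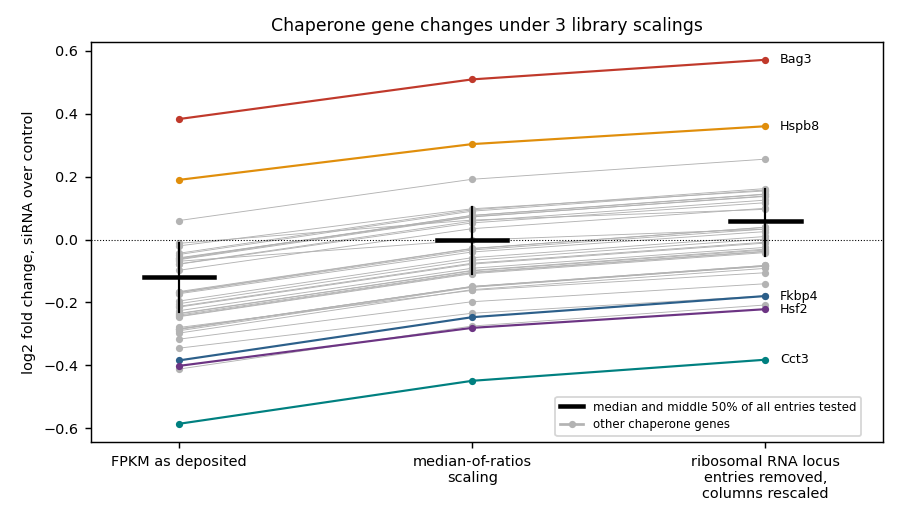
Log2 fold change, circHIPK2 siRNA over control, of the 41 tested chaperone genes under 3 scalings, each line a gene; the thick black bar is the median and the vertical line the middle 50% of all entries. All genes shift upwards together, Bag3 and Hspb8 being above 0 as deposited already, and Cct3, Hsf2 and Fkbp4 stay below 0 under the 3.

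Some levels are uncertain because other entries share sequence. At least 10% of 50-base windows were shared with another gene for 11 of the 42 genes, the highest being Hspa1b, Hspa1a, Hspb1, Hsp90aa1, Hspd1 and Hspa8 in that order. Ptges3-ps, a copy sharing 19.5% of the windows of Ptges3, had 78.5 ± 5.46 FPKM with the siRNA and 95.6 ± 2.95 FPKM in controls, above Ptges3 itself in every library. Its log2 fold change of −0.28 (limma's BH-adjusted p = 0.222) stood beside −0.10 for Ptges3. Gm15459, sharing 34.6% of the windows of Hspa8, had 199 ± 25.1 FPKM with the siRNA and 246 ± 57.7 FPKM in controls, and Hspd1-ps3, sharing 38.0% of those of Hspd1, had 35.6 ± 3.30 FPKM with the siRNA and 42.1 ± 0.848 FPKM in controls (SD, n = 3 each).

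A further list of 69 chaperone and cochaperone genes had 60 tested and 0 passing the test in limma. At an unadjusted p below 0.05, 6 were lower and 1 higher, or 10% and 1.67% of the 60, against 15.5% and 1.83% of all entries. Their median log2 fold change was −0.15. Of the 60, 14 (23.3%) lay entirely lower and 2 (3.33%) entirely higher, shares near the 22.1% and 2.65% of all entries. St13, the Hsp70 cochaperone Hip that steadies Hsp70 in its closed state, had 45.0, 54.0 and 50.6 FPKM with the siRNA and 35.5, 35.0 and 35.4 FPKM in controls. It was the higher of the 2 by size, with a log2 fold change of 0.48 (SE 0.10; limma's BH-adjusted p = 0.128), and with median-of-ratios scaling it passed at 0.62 (limma's BH-adjusted p = 0.0487, within a range of 0.0487 to 0.342 over the alternatives). Unc45a, a myosin chaperone, was the other, and was named after its values were seen. On the lower side Hspa14, an Hsp70 of the ribosome, had 17.8 ± 1.497 FPKM with the siRNA and 21.5 ± 0.12 FPKM in controls. The mitochondrial protease genes Clpp and Lonp1 averaged 40.2 and 21.998 FPKM with the siRNA and 47.8 and 27.5 FPKM in controls, with log2 fold changes of −0.25 and −0.32 (limma's BH-adjusted p = 0.235 and 0.26). Without siRNA library 3 Lonp1 had −0.18.

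Libraries of 1 group varied about as much as for other genes. Over the 41 genes the median coefficient of variation was 9.74% among siRNA libraries and 8.40% among controls, against 11.6% and 9.49% over all entries. It exceeded 20% for 5 genes in the siRNA group and 4 in the controls. Nothing in the labels states that the 3 libraries of a group came from separate cultures, so every p describes the spread among these 6 libraries, part or all of which may be technical.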

How the data were processed

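Sequencing of mRNA from 6 libraries of embryonic hippocampal neural stem cells was used, 3 libraries per group by title. The authors deposited FPKM values for 54884 entries named by symbol. HISAT, StringTie, edgeR and the build mm9 are named in the submitters' processing notes; the sources used here do not give versions, annotation, or whether counting used strand or the molecular identifiers. The libraries were stranded (dUTP) and carried molecular identifiers, per the labels' protocols. FPKM depends on the library total, so entries that take a large share lower all others.

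Values were used as deposited. The 13702 entries averaging 1 FPKM or more over the libraries were tested on log2(FPKM + 1) with limma 3.58.1 in R 4.3.3 (mean-variance trend, two-sided, Benjamini-Hochberg over all entries, call at 0.05), which understates changes of low genes. Exact permutation of 3 against 3 libraries cannot go below 0.1. The fit was tested on data simulated with the spread of these libraries. It recovered 46.9% of 1.5-fold, 77.4% of 2-fold and 96.3% of 4-fold changes, and 4.18% of its calls were false. Changes below 1.5-fold were not simulated, so a gene that did not pass may still differ by that much. Depth was estimated from 19015 genes with 1 transcript of at least 500 nt, searching 10000000 to 30000000 fragments; 38.4% to 42.2% of low values fell within 0.05 of a whole fragment, where chance gives 10%. Shared sequence was counted on GENCODE M21 transcripts. Promoters are from RefSeq, GRCm38.p6; no other coordinates are given.

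All listed genes are named; from the further list, those called, or else up to 3 per direction by p. Members and lists were chosen with earlier results of these data known. The alternatives tried were 2 scalings, other pseudocounts (0.1 and 0.5), other filters (none, or a mean of 5 FPKM), a block for replicate number, library weights, no trend, and leaving out each library.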

Additional observations from a re-analysis of the deposited data

How the results depend on the processing

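No chaperone gene was called in any of the 15 alternatives, and the smallest adjusted p was 0.0534 (Hsf2 with library weights, limma). Of 609 recomputed gene values 44 turned sign, in 20 of the 41 genes. The median of −0.20 became −0.066 with median-of-ratios scaling and 0.0016 with the ribosomal RNA locus entries removed. The 13 genes entirely lower became 7 and 0 under these, and between 13 and 24 with a library left out. The 2 entirely higher became 1 at a minimum of 5 FPKM, where fewer genes are tested. Among the further chaperone genes 0 became 1, St13, with median-of-ratios scaling. With that scaling log2 fold changes turned to 0.062 for Hspa1b, 0.076 for Hspa4, 0.059 for Dnaja2, 0.053 for Dnajb1, 0.073 for Dnajb6, 0.077 for Hsp90ab1, 0.098 for Chordc1, 0.034 for Ptges3, 0.0901 for Cct6a, 0.072 for Cryab and 0.094 for Hspe1. With the ribosomal RNA entries removed they turned to 0.033 for Hspa1a, 0.096 for Hspa1b, 0.039 for Hspa8, 0.143 for Hspa4, 0.125 for Dnaja2, 0.117 for Dnajb1, 0.137 for Dnajb6, 0.145 for Hsp90ab1, 0.155 for Chordc1, 0.099 for Ptges3, 0.025 for Cdc37, 0.039 for Tcp1, 0.0096 for Cct2, 0.033 for Cct4, 0.158 for Cct6a, 0.138 for Cryab, 0.0016 for Hspa9 and 0.162 for Hspe1. Both shifts follow from the rescaling, which moves all entries together. With library weights Hsf1 turned to −0.079, and Cct3 and Dnajb4 had −1.03 and −1.08; the cause was not tested. With a library left out, values that turned ranged from −0.67 to 0.25 for Dnajb4, −0.11 to 0.055 for Chordc1, −0.057 to 0.22 for Hsf1, −0.11 to 0.11 for Hspa1b, −0.15 to 0.0086 for Hspa4, −0.12 to 0.0052 for Dnajb6, −0.20 to 0.025 for Hsp90ab1, −0.095 to 0.0042 for Cct6a and −0.12 to 8.93e-06 for Hspe1. Values that kept their sign but moved by over 1.5 times with a library left out, beside those in the results, ran from −0.37 to −0.035 for Hspa8, and reached −0.073 for Dnaja1 (siRNA library 1), −0.073 for Cdc37 and −0.13 for Ahsa1 (siRNA library 3), and −0.15 for Bag1 and Hsp90aa1 (control library 1). Smaller values that also moved so ran from −0.14 to −0.019 for Dnajb1 and −0.12 to −0.020 for Cryab. Those of Hspa1a ran from −0.11 to −0.022 and those of Dnaja2 from −0.13 to −0.033.

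Libraries with the same replicate number did not deviate together (correlations of 0.046, 0.015 and 0.133 for numbers 1 to 3), so the numbers are not taken as pairs. With the replicate block 0 chaperone genes were called, and the median was −0.20. By the depth estimate, 0.0457 to 0.0543 FPKM correspond to 1 fragment on 1 kb, so Hspb1 rests on few fragments.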
